A study of Mus musculus with 8 samples.

Results

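The proteasome is the barrel-shaped protease that degrades ubiquitin-tagged proteins, and its genes were followed here through 8 libraries from mouse thymic lymphomas that lack p53. Members were the genes whose symbol follows the proteasome naming pattern (Psma to Psmg with a number), 49 of 13681 symbols in the deposited table, with the entry of highest mean kept where a symbol had several. Of these, 5 encode the immune subunits Psmb8, Psmb9, Psmb10, Psme1 and Psme2, and 44 encode the rest of the particle, its regulators and its assembly factors. The rule used symbols and no measured value. Psmc3ip, which encodes a meiotic recombination factor, fits the pattern by name alone and is set apart below.

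The groups were 3 libraries labelled ΔNp73Δ/Δ;p53-/-, 3 labelled ΔNp63Δ/Δ;p53-/- and 2 controls labelled ΔNfl/fl;p53-/-, all from C57BL/6 mice aged 10 weeks at injection. Adenovirus was put into the tumour 48 hours before the tissue was taken, Ad-CRE-mCherry in both deletion-labelled groups and Ad-mCherry in the controls. All groups thus share the loss of p53 and the injection. Controls and deletion-labelled tumours therefore differ by Cre virus and by genotype at once, and these cannot be told apart. The control label does not name the floxed gene, and nothing in the labels shows that the libraries of a group came from separate mice, so p-values measure the spread between these libraries only.

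Values are FPKM (fragments scaled to transcript length and library size), quantile-normalised by the authors so that every library has the same distribution. The depth of the libraries is unknown. Trp63, the gene of the targeted ΔNp63 form, was at 13.8, 11.3 and 6.38 FPKM in the ΔNp73-labelled libraries, at 6.58, 1.05 and 9.91 in those labelled ΔNp63 and at 5.21 and 3.38 in the controls. ΔNp63-labelled replicates 1 and 3 thus lay above both controls and replicate 2 below them. A value for the whole gene does not separate its forms, so it cannot show whether the ΔNp63 form was lost. Directions below rest on the labels. One ΔNp63-labelled library, replicate 2, was unlike the rest: its median correlation with the other 7 libraries over 12921 genes was 0.847, against 0.915 to 0.956 for the others. Calls and values that this library decides are given with and without it. Thymocyte markers (12 genes) were measured in every library, with summed levels of 2171 to 3464 FPKM in the ΔNp73-labelled, 1885 to 4102 in the ΔNp63-labelled and 4743 to 5504 in the control libraries. In whole tumours, fewer cells of a type and less RNA per cell cannot be told apart.

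The core of the proteasome, the 20S barrel, has outer rings of alpha subunits and inner rings of beta subunits, of which Psmb5, Psmb6 and Psmb7 carry the protease sites in most cells. In cells of the immune system, and in other cells after interferon gamma, newly built barrels carry Psmb8, Psmb9 and Psmb10 in their place, which favours peptides that fit MHC class I molecules. The 19S cap (Psmc and Psmd subunits) unfolds ubiquitin-tagged proteins, and the interferon-inducible 11S cap of Psme1 and Psme2 opens the barrel for peptides. Cortical epithelial cells of the thymus build a further form with Psmb11, the thymoproteasome, which shapes the positive selection of CD8 T cells.

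Interferons reach such genes through short promoter elements, the interferon-stimulated response element (core searched as GAAA and GAAA with any 2 bases between them) bound by IRF factors and the gamma-activated site (TTCNNNGAA). The promoter windows of 4 immune subunits follow, to show where such elements do and do not lie in the genes compared most closely here. Each runs 5′ to 3′ on the gene's own strand, from 250 bases before to 50 bases after the RefSeq transcript start, in GRCm38.p6. The authors mapped to mm9, so the windows come from another build than the measurements. Capitals mark the interferon-stimulated core in Psme1, at chr14:55578244-55578543 on the plus strand, and the gamma-activated site in Psmb8, at chr17:34197945-34198244 on the plus strand. Psme2, at chr14:55590972-55591271 on the minus strand, and Psmb9, at chr17:34187281-34187580 on the minus strand, have no capitals because neither motif was found on either strand.
Psme1: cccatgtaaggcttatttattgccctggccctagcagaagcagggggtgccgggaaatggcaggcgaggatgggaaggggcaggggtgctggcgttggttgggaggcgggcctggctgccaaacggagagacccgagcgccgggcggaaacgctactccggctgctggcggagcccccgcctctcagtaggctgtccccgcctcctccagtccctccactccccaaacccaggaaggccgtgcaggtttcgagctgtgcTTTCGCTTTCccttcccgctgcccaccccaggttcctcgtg
Psme2: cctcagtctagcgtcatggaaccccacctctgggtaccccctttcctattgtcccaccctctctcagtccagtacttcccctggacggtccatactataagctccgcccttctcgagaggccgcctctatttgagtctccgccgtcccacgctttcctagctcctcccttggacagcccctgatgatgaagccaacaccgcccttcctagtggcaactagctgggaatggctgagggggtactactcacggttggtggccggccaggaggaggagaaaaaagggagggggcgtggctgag
Psmb8: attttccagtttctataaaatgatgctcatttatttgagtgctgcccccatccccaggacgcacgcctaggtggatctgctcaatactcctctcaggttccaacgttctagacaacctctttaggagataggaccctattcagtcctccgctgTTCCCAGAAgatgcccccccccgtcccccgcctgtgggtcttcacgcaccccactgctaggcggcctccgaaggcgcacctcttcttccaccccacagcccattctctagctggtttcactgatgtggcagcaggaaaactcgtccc
Psmb9: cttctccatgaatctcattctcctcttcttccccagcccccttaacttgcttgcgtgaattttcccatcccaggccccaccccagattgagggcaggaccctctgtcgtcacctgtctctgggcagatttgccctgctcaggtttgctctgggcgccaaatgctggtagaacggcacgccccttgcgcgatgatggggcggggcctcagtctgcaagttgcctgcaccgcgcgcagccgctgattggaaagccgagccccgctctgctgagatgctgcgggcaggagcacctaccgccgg

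Of the 5 immune subunits, 1 window held the interferon-stimulated core (Psme1, TTTCGCTTTC, which is the core read on the other strand, 9 bases after the start) and 1 held the gamma-activated site (Psmb8, TTCCCAGAA, 97 bases before the start). Among all 32851 promoter windows the shares were 3.44% and 8.30%. Windows were at hand for 36 of the 44 other members, of which 4 held the interferon-stimulated core and 2 the gamma-activated site. The antioxidant response core (TGACNNNGC), bound by NRF1 and NRF2, was in 0 of 5 immune and 6 of 36 other members, against 12.4% of all windows. The Psmb9 window overlaps that of Tap1, the peptide transporter gene read in the opposite direction, by 275 bases. A motif match is a description of these letters and says nothing on binding.

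The levels of the 5 immune subunits lay above the control mean in both deletion-labelled groups, while most other proteasome genes lay near or below it. The clearest case was the interferon-inducible activator. None of the 48 members tested passed the threshold (adjusted p under 0.05 over all 12921 genes, limma) in any comparison with all 8 libraries. Few genes did at all: 0.0542% of genes for ΔNp73-labelled against control, 0.0929% for ΔNp63-labelled against control and 0.0542% between the deletion-labelled groups. At an unadjusted p under 0.05, which 21.3%, 13.0% and 10.5% of all genes met in those comparisons, there were 2, 3 and 2 members. They were Psme2 (higher) and Psmc3ip (lower), then Psme1, Psme2 and Psmg4 (all higher), then Psmd9 and Psmb3 (both lower, Psmb3 named after its value was seen).

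**Figure D1:**
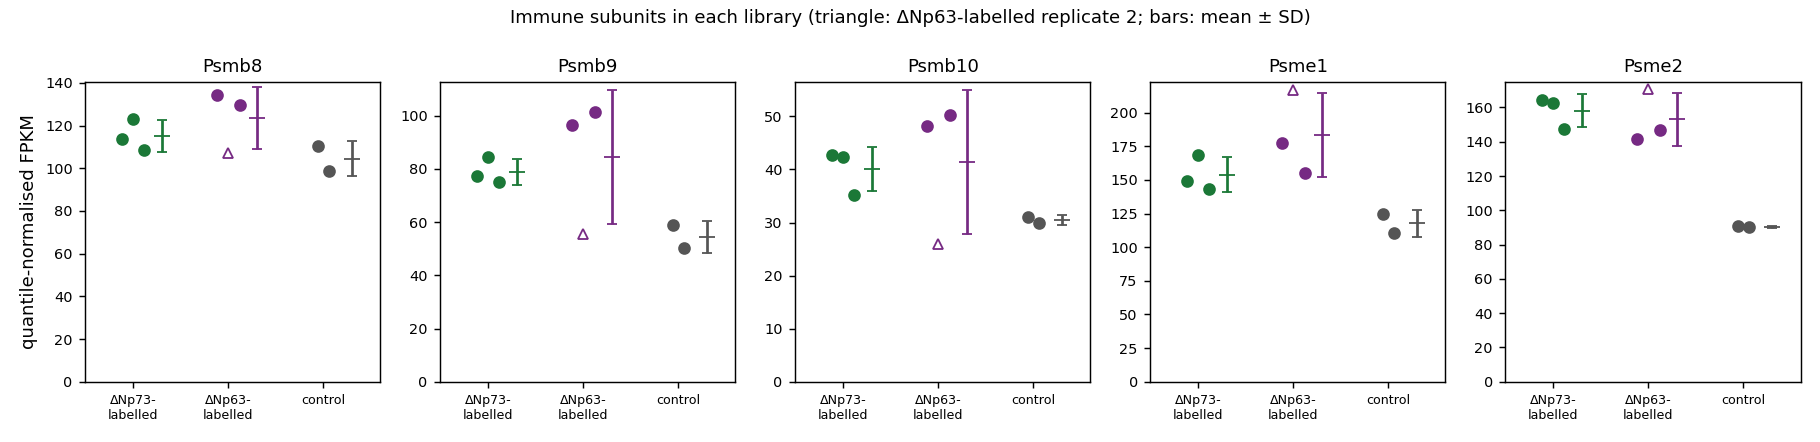
Quantile-normalised FPKM (vertical axes, from 0) of the 5 immune subunits in each library, by group, with the mean and SD beside the points and ΔNp63-labelled replicate 2 as an open triangle. For Psme1 and Psme2 all 6 deletion-labelled libraries lie above both controls, while for Psmb9 and Psmb10 the triangle lies among or below the controls.

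Psme2, the beta subunit of the 11S activator, was at 164, 163 and 147 FPKM in the ΔNp73-labelled, at 142, 170.6 and 147 in the ΔNp63-labelled and, in the controls, at 90.9 and 90.1. All 6 deletion-labelled libraries lay above both controls, and the 2 deletion-labelled groups overlapped. The mean was 158 ± 9.43 FPKM (SD, n = 3) in the ΔNp73-labelled group, 153 ± 15.4 (SD, n = 3) in the ΔNp63-labelled group and 90.5 ± 0.594 (SD, n = 2) in the controls. On the log2(FPKM + 1) scale the difference from control was 0.80 (SE 0.14, limma adjusted p = 0.0787) in the ΔNp73-labelled and 0.75 (SE 0.14, adjusted p = 0.164) in the ΔNp63-labelled group. Without ΔNp63-labelled replicate 2, Psme2 rose in both (0.80, adjusted p = 0.00187, and 0.67, adjusted p = 0.00619, limma). Over the 16 alternatives run, its adjusted p ranged from 0.000103 to 0.555 and from 0.00123 to 0.957.

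Psme1, the alpha subunit of the same cap, was at 149, 168 and 143 FPKM in the ΔNp73-labelled, at 177, 217 and 155 in the ΔNp63-labelled and at 125 and 111 in the control libraries. Again all 6 deletion-labelled libraries were above both controls, with ΔNp63-labelled replicate 2 the highest. The differences from control were 0.38 (SE 0.18, adjusted p = 0.270) and 0.62 (SE 0.18, adjusted p = 0.258, limma). Without replicate 2 they were 0.38 and 0.49 and both passed (adjusted p = 0.0474 and 0.0371), within ranges over the alternatives of 0.00466 to 0.677 and 0.0104 to 0.957. Neither activator gene passed between the deletion-labelled groups. The difference was 0.05 for Psme2 (95% interval -0.25 to 0.35) and -0.24 for Psme1 (-0.62 to 0.14), on the log2 scale for ΔNp73-labelled minus ΔNp63-labelled.

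Among all 48 members tested, 4 had all 6 deletion-labelled libraries above both controls, against 8.47% of all genes: Psme1, Psme2 and the ATPase genes Psmc2 and Psmc5 (the ATPase pair named after their values were seen). The reverse pattern, all 6 below both controls, was met by 3 members, against 12.7% of all genes: Psmc3, another ATPase gene, Psmd8, a lid subunit gene (both also named after their values were seen), and Psme4. The count above is near the background and the count below is under it.

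Psmb9 encodes the immune counterpart of Psmb6. It was at 77.3, 84.3 and 75.1 FPKM in the ΔNp73-labelled, at 96.4, 55.6 and 101 in the ΔNp63-labelled and at 58.8 and 50.3 in the control libraries. Every ΔNp73-labelled library lay above both controls, and so did ΔNp63-labelled replicates 1 and 3, while replicate 2 lay between the controls. The differences from control were 0.53 (SE 0.26, adjusted p = 0.289) in the ΔNp73-labelled and 0.58 (SE 0.26, adjusted p = 0.410, limma) in the ΔNp63-labelled group. Without replicate 2 Psmb9 rose in both, by 0.53 (adjusted p = 0.0112) and 0.85 (adjusted p = 0.00425), with ranges over the alternatives of 0.00160 to 0.679 and 0.00186 to 0.957.

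Psmb10, the counterpart of Psmb7, was at 42.7, 42.3 and 35.2 FPKM in the ΔNp73-labelled, at 48.2, 25.9 and 50.2 in the ΔNp63-labelled and at 31.1 and 29.8 in the control libraries. ΔNp63-labelled replicate 2 was the lowest of all 8 libraries, and the other 5 deletion-labelled libraries were above both controls. The differences from control were 0.38 (SE 0.28, adjusted p = 0.461) and 0.37 (SE 0.28, adjusted p = 0.607, limma). Without replicate 2 they were 0.38 and 0.67 and both passed (adjusted p = 0.0374 and 0.0103), with ranges of 0.00521 to 0.756 and 0.00387 to 0.957 over the alternatives.

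Psmb8, the counterpart of Psmb5 and the immune subunit with the highest median level of the catalytic 3, differed least. It was at 114, 123 and 108 FPKM in the ΔNp73-labelled, at 134, 107 and 129.6 in the ΔNp63-labelled and at 110.2 and 98.6 in the control libraries, and each deletion-labelled group overlapped the controls. The differences were 0.14 (SE 0.16, adjusted p = 0.625) and 0.24 (SE 0.16, adjusted p = 0.554, limma), and neither passed without replicate 2 (0.14, adjusted p = 0.324, and 0.34, adjusted p = 0.0730). Over the alternatives the adjusted p ranged from 0.0751 to 0.928 and from 0.0325 to 0.966, the lower end with array weights.

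The count of immune subunits that passed thus turned on 1 library. With all 8 libraries 0 of 5 passed in either comparison with control, and without ΔNp63-labelled replicate 2 there were 4 of 5 in each, all higher, against a background of 16.8% of genes higher in the ΔNp73-labelled and 11.7% in the ΔNp63-labelled group. For the ΔNp73-labelled group this library enters through the shared estimate of the spread alone, so the fold changes are the same in both models. A model of the ΔNp73-labelled and control libraries only, with 15.9% of genes higher, passed 3 of 5 (Psmb9, Psme1 and Psme2), and of the other members 0 higher and 6 lower, against 14.9% of genes lower. With array weights, which give an unlike library less say, 4 of 5 rose in the ΔNp73-labelled group and 5 of 5 in the ΔNp63-labelled group. All members together were then 5 higher and 16 lower, and 7 higher and 4 lower, against 23.5% and 27.3% of genes, and 16.3% and 18.4%. Both comparisons share the same 2 control libraries, so their likeness is not independent.

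The median log2 fold change of the 5 immune subunits was 0.38 in the ΔNp73-labelled and 0.58 in the ΔNp63-labelled group against control. That of the 43 other members tested was -0.18 and 0.05, and that of all genes -0.07 and -0.02. The other members lay below control in 33 of 43 cases in the ΔNp73-labelled group, against 56.7% of all genes, and in 15 of 43 in the ΔNp63-labelled group, against 52.3%. Counting groups that did not overlap, 4 of 5 immune subunits lay wholly above control in the ΔNp73-labelled group, against 27.7% of all genes, and 2 of 5 in the ΔNp63-labelled group, against 12.6%. Of the 43 other members, 4 lay wholly above and 21 wholly below control in the ΔNp73-labelled group, against 27.7% and 35.7% of all genes. In the ΔNp63-labelled group 8 lay wholly above and 3 wholly below, against 12.6% and 17.7%. The ΔNp63-labelled figures changed without replicate 2, to a median of 0.67 for the immune subunits and -0.09 for the others, of which 27 of 43 then lay below control, against 52.7% of all genes. With the other members limited to the 35 tested that are subunits of the particle, the medians were -0.14 and 0.04. Markers of other cells also differed between the groups. The summed level of 14 macrophage and monocyte genes was 1078 to 1427 FPKM in the ΔNp73-labelled, 456.5 to 1189 in the ΔNp63-labelled and 404.5 to 462.1 in the control libraries. In both comparisons 14 of 14 lay above control, against 43.3% and 47.7% of all genes. That of 7 dendritic cell genes was 45.5 to 55.1, 16.1 to 56.0 and 30.4 to 34.7 FPKM. For 7 B cell genes it was 47.0 to 52.8, 7.62 to 72.2 and 34.5 to 36.9 FPKM, with 6 and 2 of 7 genes above control. For 7 endothelial genes it was 33.9 to 59.7, 29.3 to 36.0 and 23.3 to 31.4 FPKM. All these sums were the lowest of the ΔNp63-labelled group in replicate 2. Sums of cytotoxic lymphocyte and fibroblast genes are given below.  In replicate 2 the proteasome genes were as follows. There Psme1 and Psme2 were the highest of all libraries, and Psmb8, Psmb9 and Psmb10 were below the median of the others. None of these markers was at 0 in all libraries. Their part in the levels of the immune subunits was not tested.

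**Figure D2:**
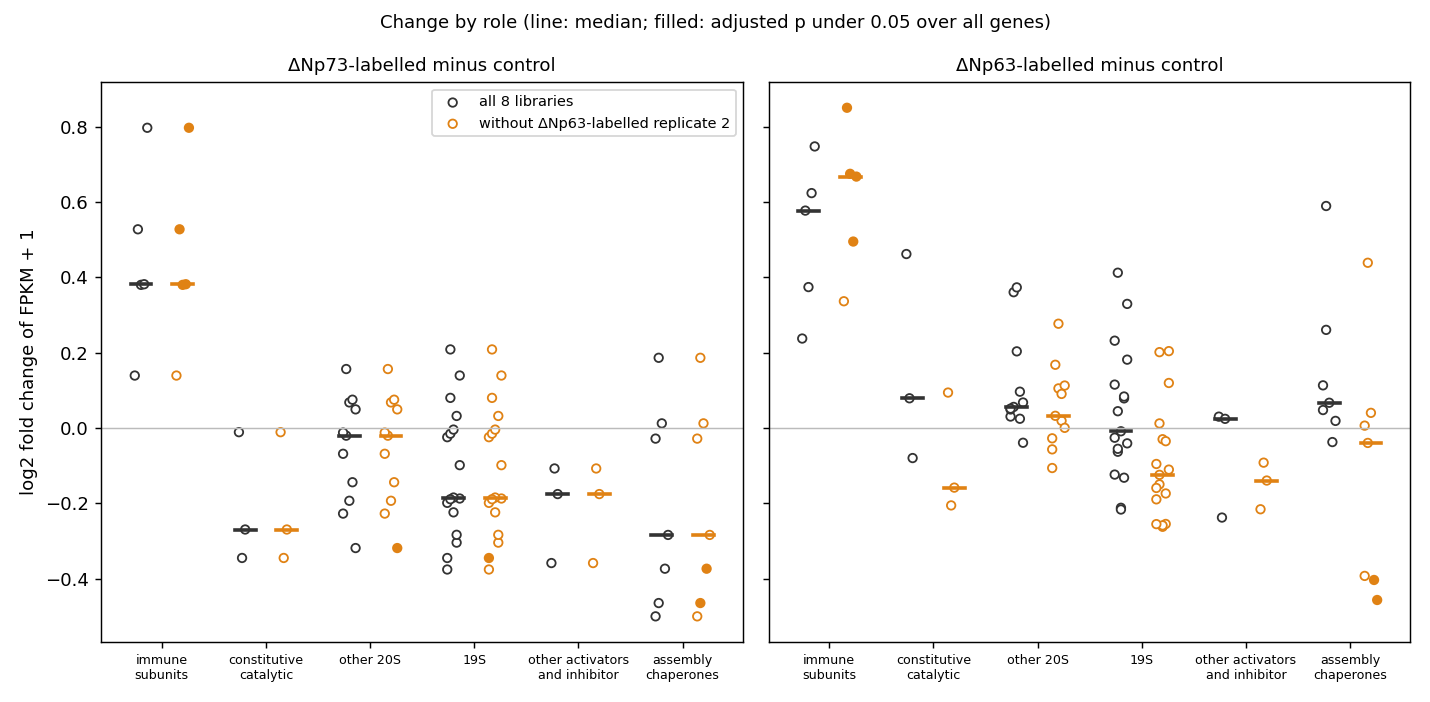
Difference from control on the log2(FPKM + 1) scale (vertical axis) for each member by role, in the ΔNp73-labelled (left) and ΔNp63-labelled (right) groups. Dark points come from all 8 libraries and orange points from the model without ΔNp63-labelled replicate 2; lines are medians, and filled points have an adjusted p under 0.05. Psmb11, Psmc3ip and the untested Psma8 are left out. The immune subunits have the highest median of the roles in both panels, and 4 of 5 are filled in the orange model.

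The constitutive catalytic subunits were at or below the control mean in the ΔNp73-labelled group. Psmb5, which carries the chymotrypsin-like site, was at 38.1, 38.9 and 42.7 FPKM in the ΔNp73-labelled, at 44.7, 93.4 and 41.3 in the ΔNp63-labelled and at 41.2 and 39.2 in the control libraries. Apart from ΔNp63-labelled replicate 2, more than 2 times the level of any other library, it was nearly level: the highest of the other 7 was 1.17 times the lowest. Psmb6, which carries the caspase-like site, was at 68.9, 64.8 and 68.7 in the ΔNp73-labelled, at 83.9, 135 and 65.9 in the ΔNp63-labelled and at 84.1 and 87.7 in the control libraries, so every ΔNp73-labelled library lay below both controls (-0.34, SE 0.28, adjusted p = 0.492, limma, with a range of 0.0117 to 0.771 over the alternatives). Psmb6 passed as lower in the model of the ΔNp73-labelled and control libraries only and with array weights.

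Psmb7, which carries the trypsin-like site, was at 113, 116 and 121 in the ΔNp73-labelled, at 129, 149 and 123 in the ΔNp63-labelled and at 145 and 137 in the control libraries, with every ΔNp73-labelled library below both controls (-0.27, SE 0.14, adjusted p = 0.308, limma). It passed as lower with array weights (range 0.0117 to 0.739 over the alternatives). Between the ΔNp63-labelled group and control the differences were 0.46, 0.08 and -0.08 for Psmb5, Psmb6 and Psmb7, none past the threshold (adjusted p of 0.582 to 0.937, limma). Without replicate 2 they were 0.094, -0.21 and -0.16, and none passed. ΔNp63-labelled replicate 2 had the highest level of all 8 libraries for each of the 3.

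Ratios of an immune subunit to its counterpart within a library are free of any factor common to the whole library, though quantile normalisation acts by rank. Psmb9 over Psmb6 was 1.12, 1.30 and 1.09 in the ΔNp73-labelled, 1.15, 0.411 and 1.54 in the ΔNp63-labelled and 0.698 and 0.574 in the control libraries. Psmb10 over Psmb7 was 0.379, 0.363 and 0.291 in the ΔNp73-labelled, 0.374, 0.174 and 0.407 in the ΔNp63-labelled and 0.215 and 0.218 in the control libraries. For both pairs all 3 ΔNp73-labelled libraries and ΔNp63-labelled replicates 1 and 3 lay above both controls, and replicate 2 was the lowest of the 8. The mean log2 ratio differed from control by 0.88 and 0.66 in the ΔNp73-labelled group, and by 0.51 and 0.46 in the ΔNp63-labelled group (1.07 and 0.85 without replicate 2).

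Psmb8 over Psmb5 was 2.99, 3.16 and 2.54 in the ΔNp73-labelled, 3.00, 1.15 and 3.14 in the ΔNp63-labelled and 2.68 and 2.51 in the control libraries, with overlap in both comparisons. Its mean log2 ratio differed from control by 0.15 in the ΔNp73-labelled group and by -0.23 in the ΔNp63-labelled group, the sign of the second turning without replicate 2 (0.24). Psme1 and Psme2 were set against Psme3, which forms a separate nuclear 11S cap of its own. Psme2 over Psme3 was 2.93, 2.45 and 2.13 in the ΔNp73-labelled, 2.01, 1.45 and 2.09 in the ΔNp63-labelled and 1.07 and 1.15 in the control libraries. Psme1 over Psme3 was 2.66, 2.54 and 2.07 in the ΔNp73-labelled, 2.52, 1.84 and 2.21 in the ΔNp63-labelled and 1.46 and 1.41 in the control libraries. Both activator ratios were higher in all 6 deletion-labelled libraries than in both controls.

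In exact two-sided permutation tests of the 15 ratio comparisons (5 pairs, 3 comparisons), the smallest p that 3 libraries against 2 allow is 0.2, so no comparison with control could pass 0.05. That value was reached for Psmb9 over Psmb6, Psmb10 over Psmb7 and both activator ratios in the ΔNp73-labelled group, and for both activator ratios in the ΔNp63-labelled group. Between the deletion-labelled groups, where 0.1 is the smallest, Psme2 over Psme3 was higher in all 3 ΔNp73-labelled libraries (difference 0.44, exact p = 0.1). After Benjamini-Hochberg adjustment over the 15 tests the smallest p was 0.429.

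**Figure D3:**
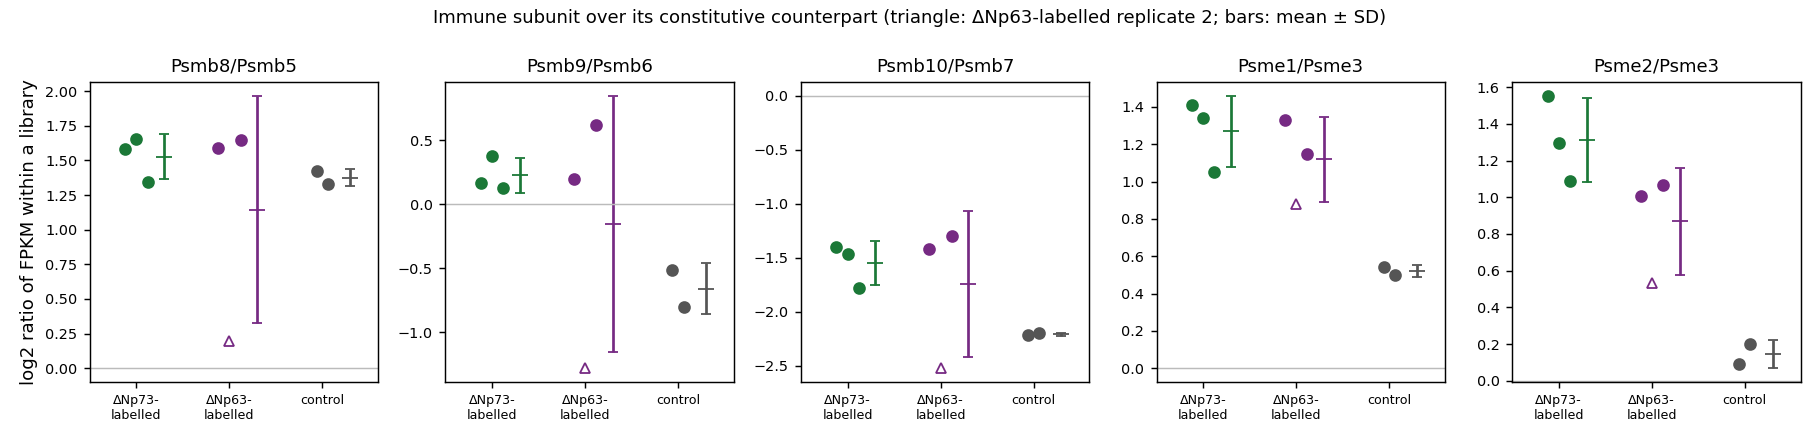
Log2 ratio of FPKM within each library (vertical axes, log2 units, each with its own range), by group, with the mean and SD beside the points and ΔNp63-labelled replicate 2 as an open triangle. The 3 catalytic pairs set an immune subunit over its constitutive counterpart. The 2 activator ratios set Psme1 and Psme2 over Psme3, which forms a separate cap and is not their counterpart. The 2 activator ratios lie above both controls in all 6 deletion-labelled libraries, and the triangle is the lowest point in the 3 catalytic pairs.

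Summed as FPKM over the 6 catalytic subunits, the immune forms made up 51.6%, 53.1% and 48.5% in the ΔNp73-labelled, 52.0%, 33.4% and 54.9% in the ΔNp63-labelled and 42.6% and 40.4% in the control libraries. Every deletion-labelled library except ΔNp63-labelled replicate 2 lay above both controls, and replicate 2 lay below them. FPKM is scaled to transcript length, so these shares compare transcripts between genes, not protein.

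Psmb11, the thymoproteasome subunit of cortical thymic epithelium, was at 6.18, 9.64 and 6.66 FPKM in the ΔNp73-labelled, at 7.58, 0.118 and 13.7 in the ΔNp63-labelled and at 14.2 and 11.9 in the control libraries. Every ΔNp73-labelled library was below both controls, and ΔNp63-labelled replicate 2 was far below all other libraries. The differences from control were -0.74 (SE 0.95, adjusted p = 0.673) and -1.43 (SE 0.95, adjusted p = 0.561, limma), the second at -0.32 without replicate 2. For the ΔNp73-labelled group the SE was 0.26 without replicate 2, and Psmb11 did not pass (adjusted p = 0.0665, limma). It passed as lower in the model of the ΔNp73-labelled and control libraries only (range 0.0376 to 0.885 over the alternatives). The summed level of 9 other thymic epithelial genes was 943 to 1201 FPKM in the ΔNp73-labelled, 156 to 1149 in the ΔNp63-labelled and 998 to 1011 in the control libraries, the 156 being replicate 2. Ctsl alone gave 466 to 569 in the ΔNp73-labelled and 582 to 592 in the control libraries, so the sum hides differences between genes. Of the 10 listed genes with Psmb11, 5 lay wholly above and 4 wholly below control in the ΔNp73-labelled group, against 27.7% and 35.7% of all genes. In the ΔNp63-labelled group 0 lay wholly above and 0 wholly below. The part of these cells in the level of Psmb11 was not tested.

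Psma8, the alpha subunit of the testis proteasome, was the only member with too low a level to be tested. It was at 0.152, 0.224 and 0.264 FPKM in the ΔNp73-labelled, at 0.857, 11.5 and 0.424 in the ΔNp63-labelled and at 0.395 and 0.545 in the control libraries. Replicate 2 alone exceeded 1 FPKM.

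The alpha ring and the structural beta subunits form the frame of the barrel. The 7 alpha ring genes had median levels over the 8 libraries from 41.4 FPKM (Psma5) to 203 (Psma6) and differences from control of -0.32 to 0.16 in the ΔNp73-labelled and -0.04 to 0.20 in the ΔNp63-labelled group (-0.06 to 0.28 without replicate 2). Psma3, whose difference was the highest of the alpha ring in the ΔNp73-labelled group, was at 66.2, 62.1 and 50.2 FPKM there, at 54.3, 56.9 and 54.0 in the ΔNp63-labelled and at 52.2 and 53.7 in the control libraries, with overlap (0.16, SE 0.15, adjusted p = 0.575, limma). The 4 structural beta genes had medians from 70.2 (Psmb1) to 187 FPKM (Psmb2). None of these 11 genes passed with all libraries (limma), and without ΔNp63-labelled replicate 2 only Psma6 did (named after its value was seen), lower in the ΔNp73-labelled group (-0.32, limma).

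The 6 ATPase genes of the 19S cap had medians from 31.6 (Psmc5) to 72.0 FPKM (Psmc3), and the 11 non-ATPase genes from 19.2 (Psmd6) to 74.6 (Psmd8). Their median differences from control were -0.12 and -0.18 in the ΔNp73-labelled group and 0.04 and -0.01 in the ΔNp63-labelled group, the last 2 at -0.13 and -0.12 without replicate 2. No 19S subunit gene passed with all libraries (limma, 0 of 17 at an unadjusted p under 0.05 in either comparison with control), and without replicate 2 only the lid gene Psmd13 did, lower in the ΔNp73-labelled group (-0.34, limma, named after its value was seen).

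Of the other regulators of the barrel, Psme3 was at 56.1, 66.4 and 69.1 FPKM in the ΔNp73-labelled, at 70.5, 118 and 70.1 in the ΔNp63-labelled and at 85.4 and 78.4 in the control libraries. Every ΔNp73-labelled library was below every other library (-0.36 against control, SE 0.25, adjusted p = 0.426, limma, range 0.0172 to 0.794 over the alternatives). The ΔNp63-labelled group was at 0.03, and at -0.22 without replicate 2. Psme4, which encodes the nuclear activator PA200, was at 18.1, 18.9 and 16.6 in the ΔNp73-labelled, at 17.1, 13.1 and 19.1 in the ΔNp63-labelled and at 19.1 and 19.5 in the control libraries, all 6 below both controls, with ΔNp63-labelled replicate 2 the lowest (-0.11, adjusted p = 0.750, and -0.24, adjusted p = 0.599, limma; the second at -0.09 without replicate 2). Psmf1, the gene of the inhibitor PI31, had a median of 7.50 FPKM.

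Assembly chaperones, which hold partly built rings together and are not in the finished particle, had medians of 6.17 to 18.2 FPKM for the 4 Psmg genes and 7.34 to 14.3 for Psmd5, Psmd9 and Psmd10. Psmg4 was at 15.4, 20.7 and 17.7 FPKM in the ΔNp73-labelled, at 24.4, 29.7 and 18.8 in the ΔNp63-labelled and at 16.4 and 14.7 in the control libraries, and every ΔNp63-labelled library was above both controls (0.59, SE 0.22, adjusted p = 0.330, and 0.44 without replicate 2, adjusted p = 0.114, limma). It passed in that comparison with array weights (range 0.0288 to 0.957 over the alternatives). Psmd9 was at 5.11, 5.39 and 5.67 in the ΔNp73-labelled, at 7.97, 14.99 and 7.19 in the ΔNp63-labelled and at 8.13 and 7.49 in the control libraries. Every ΔNp73-labelled library was below all others.

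For Psmd9 the difference from control in the ΔNp73-labelled group was -0.46 (SE 0.28, adjusted p = 0.369, limma), and that from the ΔNp63-labelled group was -0.72 (SE 0.25, adjusted p = 0.453), or -0.42 without replicate 2. Psmg3 was at 4.02, 4.52 and 6.94 FPKM in the ΔNp73-labelled, at 6.07, 17.6 and 4.98 in the ΔNp63-labelled and at 9.04 and 6.25 in the control libraries, with overlap throughout (-0.50, SE 0.48, and 0.11, SE 0.48, against control, the second at -0.39 without replicate 2). In the ΔNp73-labelled group Psmg3 passed as lower against control with array weights (range 0.03115 to 0.898 over the alternatives, limma). Without ΔNp63-labelled replicate 2, Psmg1 (-0.37) and Psmd9 (-0.46) fell in the ΔNp73-labelled group, and Psmg1 (-0.40) and Psmg2 (-0.46) in the ΔNp63-labelled group, against 16.1% and 10.8% of all genes lower (limma). Psmg1 and Psmg2, which pair as the first scaffold of the alpha ring, are named after their values were seen. The summed level of 12 proliferation genes was 352 to 575 FPKM in the ΔNp73-labelled, 353 to 1117 in the ΔNp63-labelled (1117 in replicate 2) and 1305 to 1338 in the control libraries, and its part in the levels of the chaperones was not tested.

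Psmc3ip was at 3.02, 4.49 and 4.94 FPKM in the ΔNp73-labelled, at 5.20, 14.4 and 5.25 in the ΔNp63-labelled and at 11.5 and 10.2 in the control libraries, with every ΔNp73-labelled library below all others. Its difference from control was -1.22 (SE 0.41, adjusted p = 0.162) in the ΔNp73-labelled and -0.49 (SE 0.41, adjusted p = 0.646, limma) in the ΔNp63-labelled group. It fell in both without replicate 2 (-1.22, adjusted p = 0.00312, and -0.93, adjusted p = 0.0160), with ranges over the alternatives of 0.000280 to 0.618 and 0.00416 to 0.973. Apart from Psmc3ip, the members lower without replicate 2 numbered 4 in the ΔNp73-labelled group (Psmd9, Psmg1, Psmd13 and Psma6) and 2 in the ΔNp63-labelled group, and no member other than immune subunits was higher. With Psmc3ip that is 5 and 3 of 48 members, under the 16.1% and 10.8% of all genes lower.

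**Figure D4:**
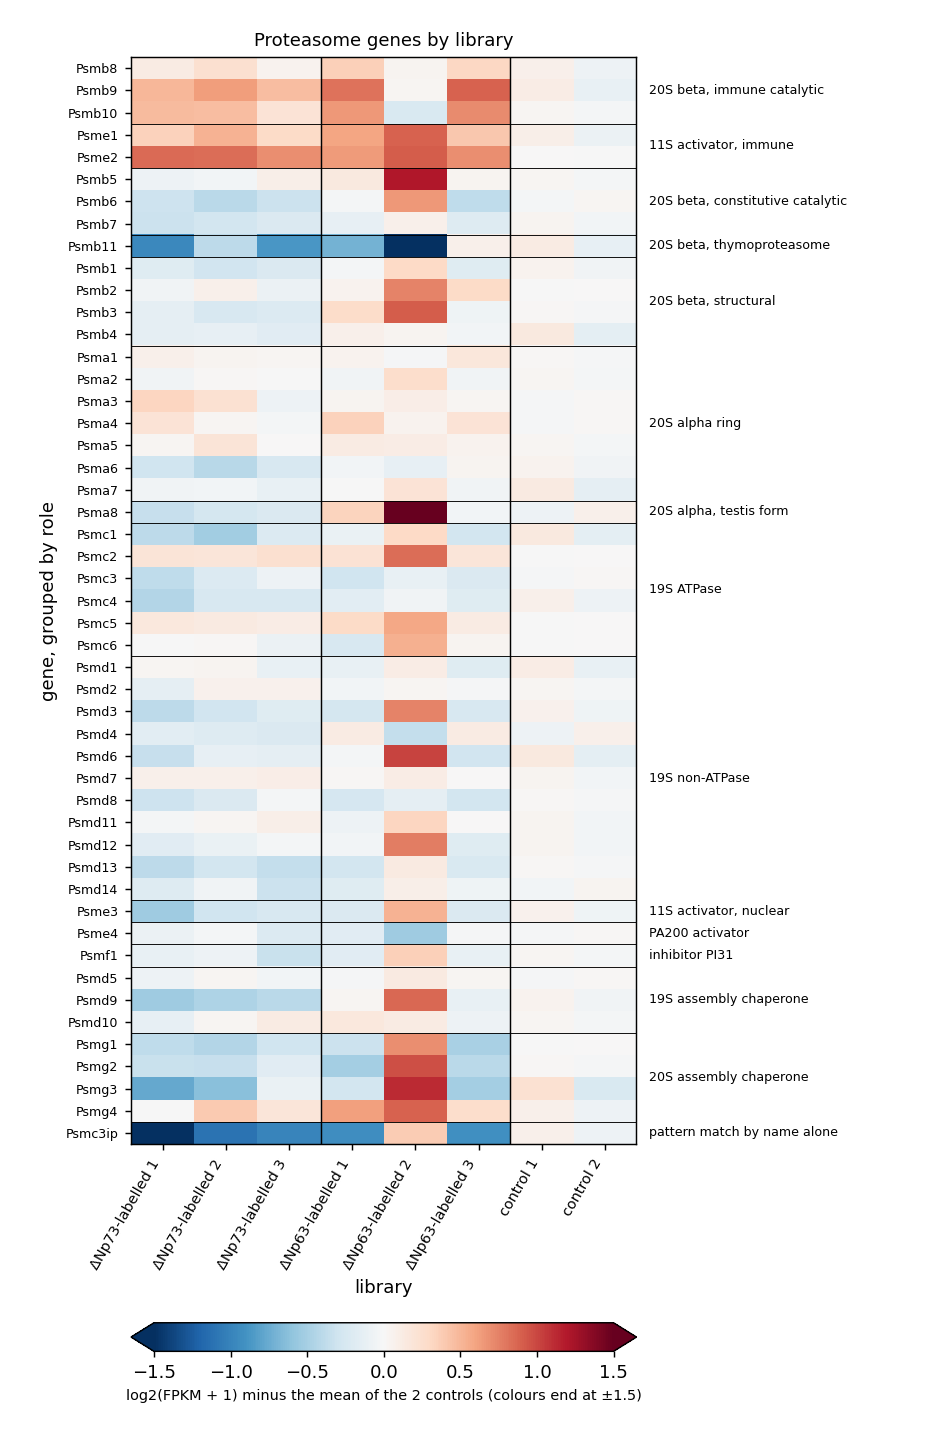
All 49 members (rows, grouped by role) in the 8 libraries (columns), as log2(FPKM + 1) minus the mean of the 2 controls, with colours ending at ±1.5. The rows of the immune subunits lie above the control mean (red) in the ΔNp73-labelled libraries and in ΔNp63-labelled replicates 1 and 3. Psmb8, which overlapped the controls, is the faintest of them. The column of ΔNp63-labelled replicate 2 is red for most other rows.

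ΔNp63-labelled replicate 2 had a proteasome pattern of its own. It was the highest of the 8 libraries for 31 of 48 members, against 31.5% of all genes, and the lowest for 4 (Psmb10, Psmb11, Psmd4 and Psme4), against 32.8%. Of the 43 other members it was highest for 29, and of the 35 tested subunits among them for 22. The genes are named by the size of the difference, after their values were seen. Relative to the median of the other 7 libraries, Psmg3 was at 2.90 times, Psmg2 at 2.61, the lid gene Psmd6 at 2.28, Psmb5 at 2.27, Psmg1 at 2.08 and the lid gene Psmd3 at 2.01. The median of the 43 other members was 0.26 log2 units above the control mean in this library, and between -0.14 and -0.04 in the other 5 deletion-labelled libraries. Its immune subunits went apart: Psme1 and Psme2 were the highest of the 8 libraries, while Psmb9 was at 0.719 times and Psmb10 at 0.612 times the median of the other 7.

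Its summed level of 6 cytotoxic lymphocyte markers was 997 FPKM, of which the granzyme gene Gzma alone gave 980.9 (named after its value was seen). Without Gzma the other 5 summed to 15.5 FPKM, against 112, 97.5 and 62.5 in the ΔNp73-labelled, 92.0 and 109.5 in the other ΔNp63-labelled and 29.6 and 33.6 in the control libraries. Its proliferation sum of 1117 FPKM lay nearer the controls than its own group. Whether these differences in make-up bear on its proteasome levels was not tested.

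**Figure D5:**
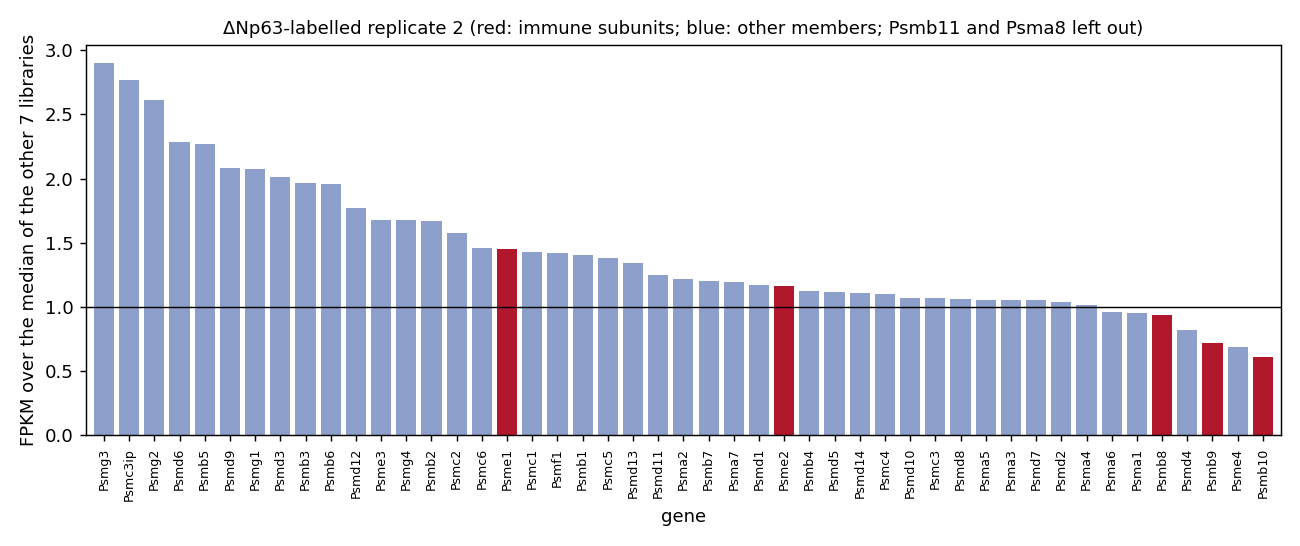
Level of each tested member in ΔNp63-labelled replicate 2 divided by the median of the other 7 libraries (vertical axis, ratio of FPKM, from 0), in falling order, with immune subunits in red. Psmb11 (0.0122) and Psma8, which was not tested, are left out. Most other members lie above 1, while Psmb8, Psmb9 and Psmb10 lie below it.

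Between the deletion-labelled groups, no member passed (0 of 48, limma, with 2 at an unadjusted p under 0.05) with all libraries or without replicate 2, when 0.149% of genes passed. The median difference of ΔNp73-labelled minus ΔNp63-labelled was -0.05 for the immune subunits, with 2 above and 3 below 0, and -0.19 for the other members, with 7 above and 36 below, against 51.9% of all genes below. Without replicate 2 these medians were -0.20 and -0.06. For Psmb9 and Psmb10 the differences were -0.05 (95% interval -0.60 to 0.50) and 0.01 (-0.59 to 0.60), intervals that hold differences of over 0.5 log2 units in either direction.

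Partners and regulators of the proteasome were read from lists of genes without a Psm symbol. Of 15 measured partners of the particle (receptors, deubiquitinases, shuttles and assembly factors), 0 passed in either comparison with control (limma, with 0 and 1 at an unadjusted p under 0.05), and their medians were -0.06 in the ΔNp73-labelled and -0.04 in the ΔNp63-labelled group (-0.17 without replicate 2). Pomp, the chaperone that completes new barrels and is known to favour immune ones, was at 127, 124 and 119 FPKM in the ΔNp73-labelled, at 137, 172 and 144.5 in the ΔNp63-labelled and at 118 and 120.2 in the control libraries. It overlapped in the first comparison (0.05, adjusted p = 0.864) and lay above both controls in the second (0.33, SE 0.15, adjusted p = 0.394, and 0.24 without replicate 2, adjusted p = 0.122, limma, range 0.0589 to 0.957 over the alternatives). Adrm1, a ubiquitin receptor of the 19S cap, was at -0.22 and -0.04. In the ΔNp73-labelled group Adrm1 passed as lower with array weights (range 0.03645 to 0.8255 over the alternatives, limma). Without replicate 2, 1 of the 15 passed in each comparison: Uchl5, a deubiquitinase of the cap, was lower at -0.53 and -0.80 (named after its value was seen), a share under the 16.1% and 10.8% of all genes lower. The 6 genes of ubiquitin and its activating enzymes had medians of -0.04 in both comparisons and 0 passed (limma, 0 at an unadjusted p under 0.05). Without replicate 2, 1 of the 6 passed as higher in each, against 16.8% and 11.7% of all genes.

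Nfe2l1 encodes NRF1, which raises proteasome genes as a set when proteasome activity falls short. It was at 34.1, 26.6 and 22.8 FPKM in the ΔNp73-labelled, at 24.8, 6.55 and 28.9 in the ΔNp63-labelled and at 12.4 and 19.2 in the control libraries. Every ΔNp73-labelled library was above both controls, and ΔNp63-labelled replicate 2 was the lowest of all. Nfe2l2, the gene of NRF2, was at 47.5, 45.0 and 38.3 in the ΔNp73-labelled, at 29.5, 23.9 and 31.9 in the ΔNp63-labelled and at 24.4 and 26.6 in the control libraries, with every ΔNp73-labelled library above all others.

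For these regulators the differences from control in the ΔNp73-labelled group were 0.79 (SE 0.57, adjusted p = 0.443) for Nfe2l1 and 0.75 (SE 0.17, adjusted p = 0.0970, limma) for Nfe2l2. Without replicate 2 both rose there (adjusted p = 0.0324 and 0.00455, with ranges over the alternatives of 0.0128 to 0.839 and 0.000230 to 0.555). Foxo4, another listed regulator, fell there in that model (-0.65, limma, named after its value was seen). It was at 5.89, 5.83 and 6.92 FPKM in the ΔNp73-labelled, at 8.54, 6.45 and 8.12 in the ΔNp63-labelled and at 9.83 and 10.7 in the control libraries. In the ΔNp63-labelled group Nfe2l1 and Nfe2l2 were at 0.13 and 0.14, or 0.75 and 0.26 without replicate 2, and neither passed. Of the 6 listed regulators 0 passed with all libraries in either comparison with control (limma, 2 and 0 at an unadjusted p under 0.05). Without replicate 2, 2 of the 6 were higher and 1 lower in the ΔNp73-labelled group, against 16.8% and 16.1% of all genes, and 0 passed in the ΔNp63-labelled group.

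Most genes that carry the interferon signal to the immune subunits lay above the control mean. Of 12 measured genes of the pathway, 10 were above control in the ΔNp73-labelled group (median 0.71) and 7 in the ΔNp63-labelled group (median 0.21), against 43.3% and 47.7% of all genes, with 0 past the threshold (limma, 5 and 2 at an unadjusted p under 0.05). In the ΔNp73-labelled group 10 lay wholly above both controls and 2 wholly below, against 27.7% and 35.7% of all genes. In the ΔNp63-labelled group 1 lay wholly above and 1 wholly below, against 12.6% and 17.7%, so that group did not stand out by this count. Without replicate 2 it had 11 of 12 above the control mean, with a median of 0.53, against 47.3% of all genes. Irf1, the factor that binds interferon-stimulated elements of the immune subunits, was at 40.4, 42.9 and 36.5 FPKM in the ΔNp73-labelled, at 36.4, 22.7 and 47.4 in the ΔNp63-labelled and at 24.5 and 23.2 in the control libraries. Nlrc5, the transactivator of MHC class I genes, was at 6.56, 7.28 and 5.17 in the ΔNp73-labelled, at 6.82, 1.39 and 6.97 in the ΔNp63-labelled and at 3.17 and 3.00 in the control libraries. In both genes the ΔNp73-labelled libraries and ΔNp63-labelled replicates 1 and 3 were above both controls and replicate 2 below them. Of the immune subunits only Psmb10 had this order. In replicate 2, Psmb8 and Psmb9 lay between the controls, and Psme1 and Psme2 were the highest of all libraries. The part of these regulators in the levels of the immune subunits was not tested.

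Against control, Irf1 was at 0.72 and 0.49 and Nlrc5 at 0.84 and 0.38 in the ΔNp73-labelled and the ΔNp63-labelled group, none past the threshold (adjusted p of 0.208 to 0.794, limma). Without replicate 2 both passed as higher in each group. In the ΔNp63-labelled group Irf1 rose by 0.77 (adjusted p = 0.0124, range 0.00529 to 0.957 over the alternatives) and Nlrc5 by 0.95 (adjusted p = 0.00662, range 0.00506 to 0.979, limma). In the ΔNp73-labelled group the differences stayed the same (Irf1 adjusted p = 0.00841, limma). The ranges over the alternatives there were 0.000657 to 0.627 for Irf1 and 0.000874 to 0.708 for Nlrc5. In the model without replicate 2, 9 genes of the list were higher and 2 lower in the ΔNp73-labelled group, against 16.8% and 16.1% of all genes. In the ΔNp63-labelled group 6 were higher and 1 lower, against 11.7% and 10.8%. The interferon gamma receptor chain Ifngr1 was lower in both (-0.64 and -0.98), and Socs1, an inhibitor of the pathway, was lower in the ΔNp73-labelled group (-0.78). Both are named after their values were seen.

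Genes that load peptides cut by the proteasome onto MHC class I molecules mostly lay above control as well. Of 11 measured, 10 were above control in the ΔNp73-labelled group (median 0.68) and 11 in the ΔNp63-labelled group (median 0.39), against 43.3% and 47.7% of all genes. In either, 0 passed the threshold (limma, 3 and 0 at an unadjusted p under 0.05). In the ΔNp73-labelled group 10 lay wholly above both controls and 1 wholly below, against 27.7% and 35.7% of all genes. In the ΔNp63-labelled group 1 lay wholly above and 0 wholly below, against 12.6% and 17.7%. Without replicate 2, 8 passed in each, all higher, against 16.8% and 11.7% of all genes. B2m, whose values are ranks as given below, is among them in both. The ΔNp63-labelled group then had 10 of 11 above the control mean, against 47.3% of all genes, and a median of 0.61. Tap1, which shares its promoter region with Psmb9, was at 42.5, 49.7 and 36.9 FPKM in the ΔNp73-labelled, at 45.6, 19.7 and 48.5 in the ΔNp63-labelled and at 26.8 and 25.9 in the control libraries. Its replicate 2 value was the lowest of the 8 libraries, while that of Psmb9 lay between the controls. Tapbp, the bridge between transporter and MHC molecule, was at 71.4, 82.0 and 67.8 in the ΔNp73-labelled, at 66.1, 21.9 and 80.6 in the ΔNp63-labelled and at 38.0 and 45.1 in the control libraries.

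Tap2, the partner of Tap1, did not follow it. It was at 39.6, 40.4 and 41.5 FPKM in the ΔNp73-labelled, at 49.5, 44.9 and 49.7 in the ΔNp63-labelled and at 45.4 and 48.6 in the control libraries, with every ΔNp73-labelled library below all others (-0.21 against control, SE 0.13, adjusted p = 0.366, limma). Tap2 passed as lower in that comparison with array weights (range 0.0243 to 0.756 over the alternatives, limma). B2m, the light chain of MHC class I, was at 8241 FPKM in each ΔNp73-labelled library, at 21770, 1686 and 21770 in the ΔNp63-labelled and at 3186 in both control libraries. Equal values arise because the normalisation gives the highest ranks of every library fixed values, so these levels are ranks and their fold changes are not read as amounts.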

How the data were processed

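RNA of mouse thymic lymphomas was sequenced as 8 libraries (Illumina TruSeq libraries from total RNA, per the labels' protocols). The authors deposited 1 table of quantile-normalised FPKM values with 16589 entries. The submitters' processing notes name TopHat2 2.0, Cufflinks 2.0 and the build mm9, and which step each served is not given in the sources used here. No counts were at hand, so depth is unknown and no counting intervals are given. Quantile normalisation hides any change in the total amount of RNA and fixes the values of the highest ranks.

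Symbols turned into dates (35) were restored. The entry of highest mean was kept for each of 13681 symbols, and 12921 were tested, those that reached 1 FPKM in 2 or more libraries. Log2(FPKM + 1) values of all 8 libraries were fitted in 1 model with limma 3.58.1 (R 4.3.3), with an intensity trend and 5 residual degrees of freedom. P-values were adjusted by Benjamini-Hochberg over all genes tested, with a threshold of 0.05. A fold change on this scale understates the change of low genes. The procedure was tested on simulated data whose libraries varied independently, with none outlying. That test therefore cannot show how a library such as ΔNp63-labelled replicate 2 affects the calls. Ratios were compared with exact two-sided permutation tests, adjusted over 15 tests.

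Groups come from the labels, and replicates were numbered in accession order. Named genes are the 5 immune subunits, their constitutive counterparts, Psme3, Psme4, Psmb11 and Psma8, members or list genes past the threshold, the 3 members highest and lowest in each comparison, and 12 fixed genes of the lists. Ifng, among the 12, had no entry, and 1 other is not reported here. Members and lists were chosen with earlier results of these data known. Alternatives covered the pseudocount, the filter, scaling, the entry per symbol, the groups in the model, the estimate of the spread and each library left out.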

Additional observations from a re-analysis of the deposited data

Results flagged for a closer look

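In ΔNp63-labelled replicate 2, entries of 2 members that were left out of the main comparisons stood above their level in the controls. The testis subunit gene Psma8, too low to be tested, was at 11.53 FPKM there, at 0.857 and 0.424 FPKM in the other ΔNp63-labelled libraries and at 0.395 and 0.545 FPKM in the controls. The second entry of Psme2, another transcript record with lower values, was at 10.03 FPKM there, at 5.54 and 4.07 FPKM in the other ΔNp63-labelled libraries and at 3.49 and 2.77 FPKM in the controls. No group had the 4 libraries that a check for single outlying values needs.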

How the results depend on the processing

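No paired analysis was possible because the labels give no replicate numbers. Counts of calls depended on single libraries and on how libraries were weighted. Leaving out 1 library at a time, genes past the threshold ranged from 0 to 4212 for ΔNp73-labelled against control (0 without either control), from 3 to 2882 for ΔNp63-labelled against control and from 6 to 19 between the deletion-labelled groups, the highest counts without ΔNp63-labelled replicate 2. Members ranged from 0 to 4 higher in both comparisons with control, all of them immune subunits (0 to 4), and from 0 to 5 lower in the ΔNp73-labelled and 0 to 3 in the ΔNp63-labelled group.

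In the same way the median of the immune subunits ranged from 0.34 to 0.47 in the ΔNp73-labelled and from 0.42 to 0.69 in the ΔNp63-labelled group, that of the other members from -0.20 to -0.12 and from -0.09 to 0.10, and the difference of these medians from 0.51 to 0.60 and from 0.32 to 0.76. Between the deletion-labelled groups the ranges were -0.20 to 0.022, -0.24 to -0.063 and -0.13 to 0.26. Log2 ratios of the ΔNp63-labelled group against control ranged from -0.48 to 0.24 for Psmb8 over Psmb5, from 0.12 to 1.07 for Psmb9 over Psmb6 and from 0.24 to 0.85 for Psmb10 over Psmb7. Between the deletion-labelled groups they ranged from -0.091 to 0.63, from -0.18 to 0.77 and from -0.19 to 0.42, and from 0.03 to 0.26 for Psme1 over Psme3.

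Log2 fold changes whose sign turned with 1 library left out were, for ΔNp63-labelled against control, Nfe2l1 (-0.24 to 0.75), Psmb6 (-0.21 to 0.31), Psmd9 (-0.039 to 0.44), Psme3 (-0.22 to 0.16), Psmg3 (-0.39 to 0.43), Tapbp (-0.11 to 0.80), Adrm1 (-0.11 to 0.036) and Tap2 (-0.017 to 0.077), and for ΔNp73-labelled against control Psmb5 (-0.059 to 0.023). Between the deletion-labelled groups they were Psmb10 (-0.29 to 0.17), Psmb9 (-0.32 to 0.10), Psme2 (-0.0034 to 0.13), Psmb11 (-0.43 to 1.43), Psme4 (-0.015 to 0.24), B2m (-1.40 to 0.44), Irf1 (-0.059 to 0.46), Nlrc5 (-0.12 to 0.75) and Tap1 (-0.14 to 0.49).

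With array weights, which gave ΔNp63-labelled replicate 2 a weight of 0.0567, 6569 genes passed for ΔNp73-labelled against control, with 5 members higher, 4 of them immune, and 16 lower, and 4480 for ΔNp63-labelled against control, with 7 higher, 5 of them immune, and 4 lower. Between the deletion-labelled groups 344 passed. The median of the other members was then -0.12 in the ΔNp73-labelled group against control and -0.047 between the deletion-labelled groups, with a difference of medians of -0.094. Psmb6 (-0.13), Psme3 (-0.20) and Psmg3 (-0.32) turned below control in the ΔNp63-labelled group, and Psmb10 (-0.22) and Psmb11 (-0.013) turned between the deletion-labelled groups, as Psmb10 did with median centring (-0.00373). A model of only the groups compared passed 3890 genes for ΔNp73-labelled against control, with 3 members higher, all immune, and 6 lower, and 5 for ΔNp63-labelled against control. A pseudocount of 0.1 passed 18 genes in the first of these. With subunits only, the median of the other members was -0.14 for ΔNp73-labelled against control and -0.17 between the deletion-labelled groups. Apart from settings that weight or leave out libraries or pool fewer of them, the cause of these shifts was not tested.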

Other observations

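Several members were nearly level over all 8 libraries. The highest library was 1.11 times the lowest for the lid gene Psmd7, 1.15 times for the alpha ring gene Psma1 and for Psmd2, a scaffold of the 19S base, 1.16 times for the chaperone gene Psmd5 and 1.17 times for Psma5 (named by this measure, after their values were seen). The same measure was 2.01 for Psmb9 and 1.89 for Psme2, and it was 2.01 and 1.83 without ΔNp63-labelled replicate 2, while that of Psmb5 was 2.45 with and 1.17 without it. Psmg4 had a second entry, at 23.0, 12.7 and 12.2 FPKM in the ΔNp73-labelled, at 23.6, 14.97 and 15.4 in the ΔNp63-labelled and at 16.5 and 14.3 in the control libraries. Unlike the entry with the higher mean, it overlapped between the ΔNp63-labelled libraries and the controls. The highest summed fibroblast markers were in the ΔNp73-labelled libraries, at 253 to 336.5 FPKM, against 94.4 to 219 in the ΔNp63-labelled and 81.1 to 83.5 in the control libraries. Col1a2, a collagen gene, was the 1 of the 8 genes of that list to pass in the ΔNp73-labelled group against control, higher (limma adjusted p = 0.0475). In that comparison 0.0542% of all genes passed. Over the 16 alternatives its adjusted p ranged from 6.69e-05 to 0.519, so the call did not hold in all of them.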
